A study of Arabidopsis thaliana with 8 samples.

Results

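Ribosome-protected footprints (RPFs) whose P site lay past the stop codon, in the 3′ untranslated region (3′ UTR) of nuclear transcripts, were examined in 8 ribosome profiling libraries of *Arabidopsis thaliana* inflorescences. Members were the deposited lines with a positive distance from the stop codon on transcripts of the 5 nuclear chromosomes, with the ribosomal DNA locus AT2G01021 left out. They numbered 78416 of 16393105 nuclear P sites and of 21664056 lines in all. There were 2 replicates of each of 4 genotypes. These were the wild type (WT), the single mutant *hot3-2*, the double mutant *dcl2 dcl4* and the triple mutant *hot3-2 dcl2 dcl4*, all grown under long days without a further treatment named in the labels. *hot3-2* is a T-DNA insertion allele of HOT3, which encodes the initiation factor eIF5B1, and *dcl2 dcl4* is mutant in a pair of Dicer-like genes, whose enzymes make small interfering RNAs from RNA duplexes. Carriers below means the 4 libraries that hold *hot3-2*, alone or in *hot3-2 dcl2 dcl4*, and non-carriers means the other 4. Lysates held cycloheximide, which blocks elongation, and were digested with RNase I. The labels do not say that replicates came from separate plants, so the p-values measure the spread between these libraries, which may be technical.

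A ribosome normally ends translation when a stop codon enters its A site, where release factors free the peptide and recycling factors split the subunits. Footprints past the stop codon can come from ribosomes that read through it, that stay on the mRNA unrecycled, or that translate a downstream open reading frame, and also from RNA that is protected by something other than a translating ribosome. A translating ribosome leaves a footprint of nearly constant length that steps by codon, so length and reading frame are the usual checks of such reads.

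The most frequent footprints of the genes on which the results turn are shown first, because their sequences and positions place many of them on other RNAs. Each is read from TAIR10.1 in transcript direction, 5′ to 3′, with the P-site codon in capitals where all libraries placed the P site alike, and without capitals where they did not; sequences over 30 nt show their first 30 bases.
AT2G07732, 24 nt, 12337 footprints, chr2:3468331-3468354, minus strand: cttccgtgtactagctaaagcttt
AT2G07774, 19 nt, 156 footprints, chr2:3303804-3303822, minus strand: ggagggatggctgagtggc
CK1, 32 nt, 334 footprints, chr1:26973389-26973420, plus strand: gcaccagtggtctagtggcatgatagtacc
NUDX1, 32 nt, 62 footprints, chr1:25829654-25829685, plus strand: gggcatttggtctagtggtatgattctcgc
AT3G63052, 35 nt, 981 footprints, chr3:23298884-23298918, minus strand: tggactaactgaacggggcttacgtttcaa
CSD2, 28 nt, 170 footprints, chr2:12016333-12016360, plus strand: tactgtgttgatCTTgtctgtttgaaca
LHCB5, 28 nt, 12 footprints, chr4:6409563-6409590, plus strand: atgttaaaaaaaCTTccatctgaatctt
AT3G59710, 28 nt, 55 footprints, chr3:22054980-22055007, minus strand: ctatcaatcatcTTCaagtccgattcaa
AT2G37220, 28 nt, 27 footprints, chr2:15634782-15634809, minus strand: gtttcagacggtACTaagctcttagctt
The AT2G07732 sequence also lies in the plastid gene rbcL (plastid 55887 to 55910, plus strand), the AT2G07774 sequence is the start of the mitochondrial transfer RNA gene trnS(GCT) and of the nuclear tRNA-Ser gene AT2G07754, and the CK1 and NUDX1 sequences begin at the first base of the annotated nuclear genes for tRNA-Gly (AT1G71700) and tRNA-Pro (AT1G68770). The NUDX1 sequence occurred 46 times in the genome and the CK1 sequence 3 times, whereas those of AT3G63052, CSD2, LHCB5, AT3G59710 and AT2G37220 occurred 1 time each.

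The 3′ UTR held few of the P sites in every library. Their counts were 11921 and 9957 for WT, 10406 and 7731 for *hot3-2*, 11167 and 11779 for *dcl2 dcl4*, then 7431 and 8024 for *hot3-2 dcl2 dcl4*. As a share of nuclear P sites these were 0.407% and 0.373% for WT, 0.495% and 0.475% for *hot3-2*, 0.519% and 0.524% for *dcl2 dcl4*, then 0.572% and 0.586% for *hot3-2 dcl2 dcl4*. WT was lowest and *hot3-2 dcl2 dcl4* highest, and no genotype overlapped another. Library depth was 1972841 to 3588415 lines, and both *hot3-2 dcl2 dcl4* libraries were the shallowest.

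Most members were tied to 1 gene and to organelle sequence. AT2G07732 (chr2:3468160-3468899, minus strand), annotated as a protein with the catalytic domain of the Rubisco large subunit, held 58165 members, 74.2% of all and 66.9% to 77.7% per library. Its 3′ UTR of 264 nt is identical at 263 positions to the mitochondrial genome and at 249 to the plastid genome, within rbcL, the plastid gene for the Rubisco large subunit. Of its members, 51940 matched the plastid genome without a mismatch, 54734 matched the mitochondrial genome without one, and all 58165 matched 1 of them with at most 1 mismatch. Its nuclear or organellar origin cannot be told apart from these sequences.

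The AT2G07732 members were set beside the footprints listed on rbcL itself. Per 100 rbcL footprints there were 9.15 and 7.40 for WT, 12.1 and 11.9 for *hot3-2*, 11.3 and 11.6 for *dcl2 dcl4*, then 11.8 and 11.8 for *hot3-2 dcl2 dcl4*. Both WT libraries lay below the other 6. The share of AT2G07732 members that held the first 18 nt of the sequence shown above was 25.5% and 13.1% for WT, 51.4% and 52.1% for *hot3-2*, 38.5% and 38.2% for *dcl2 dcl4*, then 49.7% and 47.0% for *hot3-2 dcl2 dcl4*. All 4 carriers lay above all 4 non-carriers in this share, a pattern noticed after the values were seen and given with no test.

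The other members were sorted in a fixed order into 5 classes. A further 3190 on 17 transcripts matched an organelle genome exactly, 1346 on 14 transcripts lay on an annotated noncoding RNA, 1967 on 37 transcripts had the P site in another annotated coding sequence of the same strand, 4787 on 799 transcripts overlapped the stop codon with their 5′ end, and 8961 on 1713 transcripts lay wholly inside the 3′ UTR. The last 2 classes, 6.10% and 11.4% of all members, are called the remaining members below. The plot of classes per library shows how small they are beside AT2G07732.

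**Figure D1:**
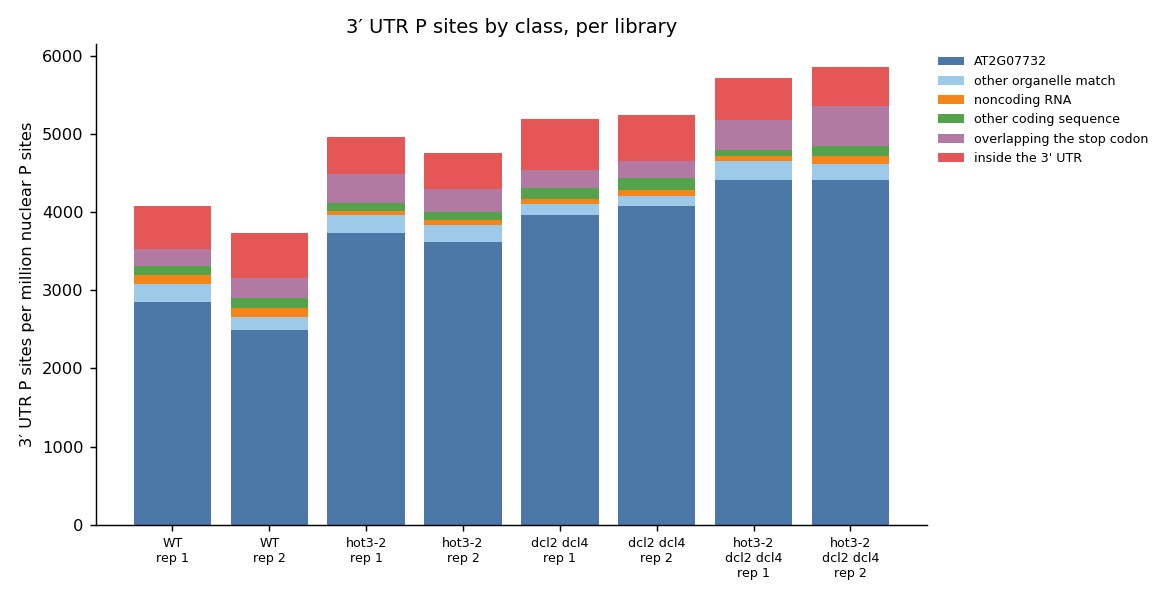
Members per 1000000 nuclear P sites (y axis) in each of the 8 libraries (x axis), stacked by class. AT2G07732 fills 66.9% to 77.7% of each bar.

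Among the organelle matches, AT2G07671, an ATP synthase subunit C homolog, held 1683 members, all matching the mitochondrial genome, and 48.2% of them were 20 to 22 nt long. AT2G07718, annotated as a cytochrome b protein, held 655 against 48 in its coding sequence, and 89.5% of them were 30 nt or longer. AT2G07774, an uncharacterized gene, held 470 members and no coding-sequence P site in any library. Its members numbered 138 and 120 for WT, 42 and 35 for *hot3-2*, 18 and 47 for *dcl2 dcl4*, then 39 and 31 for *hot3-2 dcl2 dcl4*, so that both WT libraries stood above the other 6.

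Transfer RNAs made up 755 of the 1346 members on noncoding RNA. CK1, which encodes a choline kinase, held 488 members on the tRNA-Gly gene that lies in its 3′ UTR, and 84.6% were 30 nt or longer. Their counts were 166 and 127 for WT, 17 and 28 for *hot3-2*, 57 and 53 for *dcl2 dcl4*, then 13 and 27 for *hot3-2 dcl2 dcl4*. NUDX1, which encodes a nudix hydrolase, held 267 on tRNA-Pro, with 81 and 55 for WT, 14 and 4 for *hot3-2*, 30 and 33 for *dcl2 dcl4*, then 22 and 28 for *hot3-2 dcl2 dcl4*. Scaled per 1000000 nuclear P sites, CK1 stood at 8.09 to 19.7 in carriers and 23.6 to 56.7 in non-carriers, without overlap. NUDX1 overlapped on that scale: *hot3-2* had 6.67 and 2.46 against 27.7 and 20.6 of WT. The triple mutant had 16.9 and 20.4 against 14.0 and 14.7 of *dcl2 dcl4*. The coding P sites of CK1 were 128, 121, 66 and 81 in non-carriers and 38, 44, 21 and 20 in carriers. Relative to them CK1 members had a log2 odds ratio of −0.414 ± 0.325 in carriers (SE, limma fit described below, adjusted p = 0.498). Small nucleolar RNAs held 171 members, of which 63 were on AT2G35750 at the snoRNA AT2G35747.

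A further 391 members lay on 7 noncoding precursors of trans-acting small interfering RNAs, which DCL4 cuts into 21 nt pieces. The files give these transcripts a coding frame. TAS1A (AT2G27400) held 162 members, 87.7% of them 20 to 22 nt long, with 29 and 68 for WT, 15 and 31 for *hot3-2*, 4 and 3 for *dcl2 dcl4*, then 2 and 10 for *hot3-2 dcl2 dcl4*. In these raw counts every library with *dcl2 dcl4* lay below every library without it. Scaled for depth the groups overlapped. *hot3-2 dcl2 dcl4* replicate 2 had 10 of 1369831 nuclear P sites and *hot3-2* replicate 1 had 15 of 2100427. The counts that follow are not scaled either. In 20 to 22 nt reads TAS1A had 129 members without and 13 with *dcl2 dcl4*, TAS3 had 17 and 2, TAS1B 13 and 1, TAS1C 11 and 9, and TAS2 16 and 15. These precursors were singled out after their values were seen. Over all members without organelle matches, the 20 to 22 nt share was 17.5% ± 2.13 (SD, n = 4) with *dcl2 dcl4* and 22.7% ± 3.23 without (exact permutation test, two-sided, p = 0.0571, adjusted over 15 measures p = 0.214).

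Other coding sequence held members of a pair of the leading genes. AT3G52730, a subunit of the mitochondrial cytochrome bc1 complex by annotation, is listed by an isoform whose 3′ UTR covers the coding sequence of another isoform, and 768 of its 769 members lay there. LUT1 (AT3G53130), a cytochrome P450 of carotenoid synthesis, overlaps the neighbouring gene AT3G53140, whose coding sequence held 345 of its 350 members. In this class 40.7% of the footprints were 28 nt long, close to the 44.2% of coding sequence, and 4.25% of those were in frame 0 of the listed transcript.

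Footprint length set the 3′ UTR apart from coding sequence. The 28 nt share was 8.83% ± 1.80 (SD, n = 8 libraries) in the 3′ UTR and 44.2% ± 3.14 in coding sequence, lower in 8 of 8 libraries (exact sign-flip permutation test, two-sided, p = 0.00781, the smallest it allows, and the same after adjustment over 12 measures). Footprints under 26 nt took 55.0% ± 8.69 against 14.5% ± 0.913, and those of 30 nt and over took 19.9% ± 4.57 against 3.25% ± 1.09, both higher in 8 of 8 libraries with the same p by the exact permutation test. Without AT2G07732 and the organelle matches the 28 nt share was 23.1% ± 2.83, still below coding sequence in 8 of 8 libraries. Classes differed in length: the commonest was 24 nt on AT2G07732 (25.5%), 22 nt on other organelle matches (18.8%), 32 nt on noncoding RNA (30.98%), 35 nt for footprints overlapping the stop codon (20.95%) and 28 nt inside the 3′ UTR (26.4%).

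**Figure D2:**
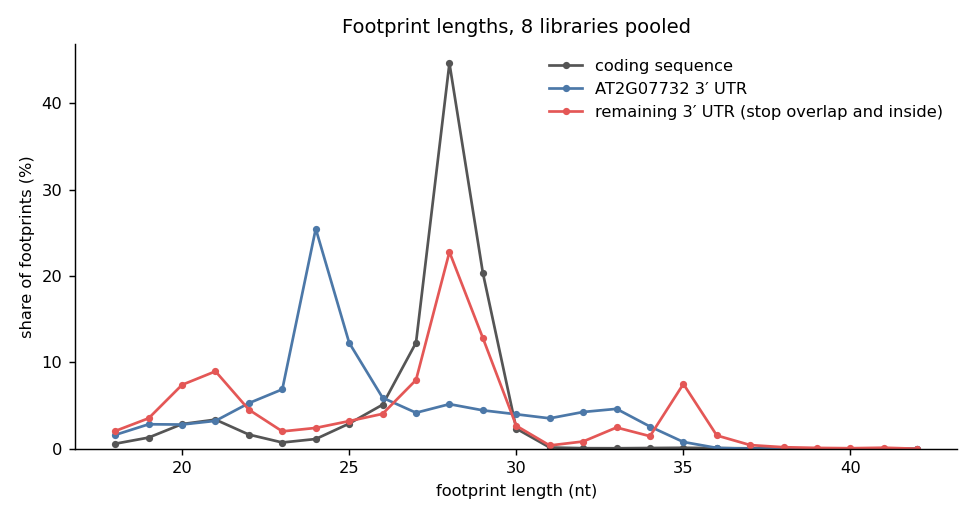
Share of footprints (y axis, %) by length (x axis, nt) with the 8 libraries pooled, for coding sequence, AT2G07732 and the remaining members. Coding sequence peaks at 28 nt with 44.6%, AT2G07732 at 24 nt with 25.5%, and the remaining members have peaks at 21, 28 and 35 nt.

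Reading frame also differed. Frame 0 is the frame of the annotated coding sequence, continued past the stop codon. It held 36.0% ± 8.49 (SD, n = 8) of 3′ UTR P sites and 71.4% ± 0.994 of coding P sites, lower in 8 of 8 libraries (exact sign-flip permutation test, p = 0.00781). In 28 nt footprints, whose P-site offset was 12 nt in all libraries, frame 0 held 22.5% ± 2.72 against 88.0% ± 1.03, again lower in 8 of 8 (exact permutation test, p = 0.00781). *hot3-2 dcl2 dcl4* replicate 1 stood apart with 18.8% in frame 0 at all lengths against 32.4% to 45.8% in the other 7. The usual offset of 24 nt footprints was 8 nt in that library, 9 nt in the *dcl2 dcl4* libraries and 12 nt in the other 5, so the AT2G07732 stack was given positions 78, 79 or 82. Without AT2G07732 that library had 40.2% in frame 0, within the range of the others.

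Within 28 nt footprints the frame depended on the class. AT2G07732 had 75.0% in frame 1, and noncoding RNA had 79.7% in frame 2. The 2365 footprints inside the 3′ UTR were spread over the frames, with 29.7%, 33.0% and 37.3% in frames 0, 1 and 2. Of these, 33.9% lay before the first in-frame stop codon of the 3′ UTR, a stretch with 17.2% of the positions, and 44.9% of those in the stretch were in frame 0. The 768 that overlapped the stop codon had 38.9%, 38.7% and 22.4%.

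**Figure D3:**
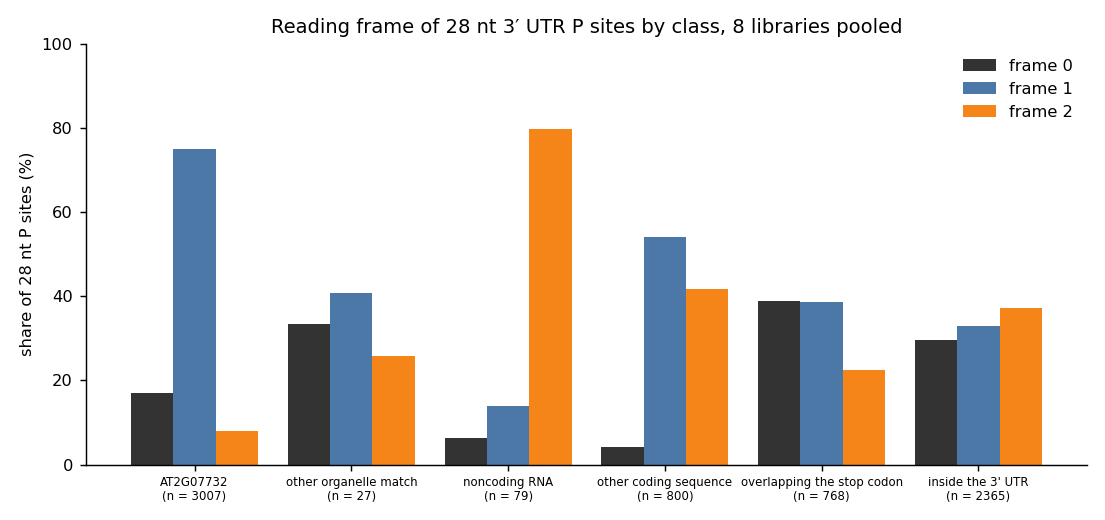
Share of 28 nt members (y axis, %) in each reading frame by class (x axis, with the number of footprints), 8 libraries pooled. No class of the 3′ UTR has the 88.0% in frame 0 of coding sequence.

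Open reading frames inside the 3′ UTR were searched for, defined as ATG to an in-frame stop codon (TAA, TAG or TGA) with at least 10 codons on the sense strand. Of the 2365 footprints of 28 nt inside the 3′ UTR, 47.9% had the P site in such a frame's span, where 42.6% of the positions of the same 3′ UTRs lie, and 28.4% were in the frame of the ORF, where 16.97% of positions are. Of those within a span, 59.2% were in its frame. AMSH3 (AT4G16144), which encodes a deubiquitinating enzyme, had 49 such footprints, 100% of them in the frame of a downstream ORF, and BEH2 (AT4G36780), a homolog of a brassinosteroid transcription factor, had 40 with 92.5%. LCR69, which encodes a small defensin-like protein, had 53 with 77.4%. Other genes with many 28 nt members had them at 1 position: 100% of the 170 of CSD2, 95.7% of the 47 of AT1G07920, a gene for elongation factor 1-alpha, and 85.9% of the 64 of AT3G59710. These genes were chosen after their values were seen.

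The remaining members lay close to the stop codon. Of these, 34.8% had the P site in the first 15 nt, 35.2 P sites per kb of 3′ UTR among expressed transcripts, with 9.64 per kb at 16 to 30 nt and 1.39 per kb beyond 200 nt. Per library the first 15 nt held 25.4% to 51.3%. AT3G63052, described further on, carried much of this, and without it the window held 26.5% (20.5% to 34.4% per library), 23.0 per kb. In 28 nt footprints the density was 6.17 per kb in the first 15 nt and 0.252 beyond 200 nt. Scaled per 1000000 coding P sites, 28 nt footprints in non-carriers stood at 2622 at position −5 and 3079 at position −4, counted from the last base of the stop codon, and at 9.49 at position 1. In carriers they stood at 2814, 3577 and 20.2. At positions 2 and 3 non-carriers had 17.4 and 12.97 and carriers 22.5 and 9.36, so the groups did not keep 1 order over these bases. The plot of P sites around the stop codon shows this step.

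**Figure D4:**
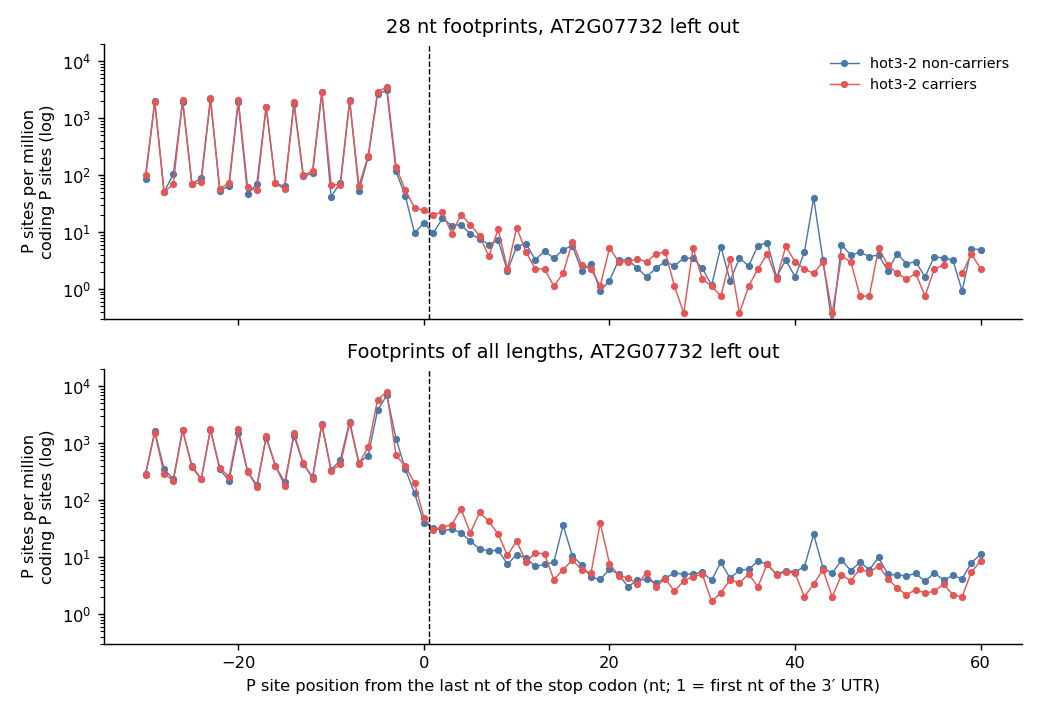
P sites per 1000000 coding P sites (y axis, log scale) by position from the last base of the stop codon (x axis, nt), for 28 nt footprints and for all lengths, pooled over 4 carriers and 4 non-carriers, AT2G07732 left out. Non-carriers have a peak of 39.8 at position 42 in 28 nt footprints, which is CSD2, against 1.87 in carriers.

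Compared by length of sequence, the 3′ UTR was nearly empty. Over 9198 expressed transcripts with organelle matches left out, it had 0.427 to 0.894 P sites per kb per library. Coding sequence had 185 to 262 times as many and the 5′ UTR 19.7 to 67.1 times as many. Of 9186 transcripts with a mean of at least 20 coding P sites, 1775 had any member in 8 libraries and 7411 had none, of which 148 have no annotated 3′ UTR. RBCS1A, which encodes a Rubisco small subunit, had 183477 coding P sites and 0 members in a 3′ UTR of 307 nt, and LOS1, which encodes an elongation factor 2, had 104497 and 0. Members were also scattered: of 2223 transcripts with any, 1300 had them in 1 library only and 53 had them in all 8, and without organelle matches 53 transcripts held 50% of the members.

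Whether *hot3-2* changed the amount of 3′ UTR footprints was asked next. The share of nuclear P sites was 0.532% ± 0.0548 (SD, n = 4) in carriers and 0.456% ± 0.0773 in non-carriers, a ratio of 1.17 (exact permutation test, two-sided, p = 0.171, adjusted over 15 measures p = 0.257). This test shuffled all libraries and took no account of *dcl2 dcl4*, which adds to the spread. *hot3-2* had 0.495% and 0.475% against 0.407% and 0.373% of WT. *hot3-2 dcl2 dcl4* had 0.572% and 0.586% against 0.519% and 0.524% of *dcl2 dcl4*. A shift within each background was not tested. With 28 nt footprints alone the ratio of carriers to non-carriers was 0.897 (p = 0.514 by the same exact test), and without AT2G07732 and organelle matches the shares were 0.105% and 0.105%, a ratio of 1.00 (exact permutation p = 0.971). The ratio thus changed with footprint length and also with leaving out AT2G07732 and organelle matches, and none of these tests had p under 0.05. The share of members within 30 nt of the stop codon was 9.41% ± 0.872 in carriers and 7.84% ± 1.31 in non-carriers (n = 4 each, ratio 1.20, exact permutation p = 0.114), and the ratio was 0.850 for footprints wholly past the stop codon (exact permutation p = 0.171). It was 1.33 in 28 nt footprints, 1.12 without the 10 genes with most members, 1.37 without AT2G07732 and 1.45 without organelle matches. Each had an unadjusted exact permutation p of 0.0286. AT3G63052, described further on, has a median distance of 7 nt and was 2.92 times as high in carriers. It was left out with the 10 genes but kept without AT2G07732 and without organelle matches. The 28 nt setting held little of it, as 0.617% of its 1946 members were 28 nt long. *dcl2 dcl4* had the higher share at 0.550% ± 0.0335 against 0.438% ± 0.0573, a ratio of 1.26, higher in 4 of 4 libraries (exact permutation test, p = 0.0286, the smallest that 70 assignments allow, adjusted p = 0.143). AT2G07732 moved with it: 4214 ± 233 per 1000000 with *dcl2 dcl4* and 3173 ± 600.2 without (n = 4 each, exact permutation p = 0.0286, adjusted p = 0.143), and without that gene the ratio was 1.07 (p = 0.20 by the exact test). Of the 4 libraries with *dcl2 dcl4*, 3 also had P-site offsets of 7 to 9 nt for short footprints, and no other library did. With AT2G07732 kept, the *dcl2 dcl4* ratio was 1.34 where the offsets were 12 to 13 nt, from 1 library against 4. That library was *hot3-2 dcl2 dcl4* replicate 2 at 0.586%. The 4 were WT at 0.407% and 0.373% and *hot3-2* at 0.495% and 0.475%, so this ratio also holds the difference by *hot3-2*. For 28 nt footprints, placed alike in all, the *dcl2 dcl4* ratio over all libraries was 1.39 (exact permutation p = 0.0286, adjusted p = 0.143). AT2G07732 held 3007 of the 7046 members of 28 nt.

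Carriers differed from non-carriers in the make-up of their members, although no measure passed adjustment over 15 (lowest adjusted p = 0.107). The 28 nt share was 9.21% and 12.4% for WT, 7.61% and 6.87% for *hot3-2*, 9.67% and 9.54% for *dcl2 dcl4*, then 7.47% and 7.81% for *hot3-2 dcl2 dcl4*, so that all 4 carriers lay below all 4 non-carriers (exact permutation p = 0.0286). The share under 26 nt was 61.1% ± 5.40 in carriers and 48.9% ± 6.83 in non-carriers (n = 4 each, exact permutation p = 0.0286). AT2G07732 holds most of these members. Without it and the organelle matches the 28 nt share was 20.98% ± 2.28 in carriers and 25.1% ± 1.43 in non-carriers, with 3 of 4 carriers below all non-carriers (exact permutation p = 0.0857). Footprints inside the 3′ UTR numbered 541 and 578 per 1000000 in WT, 471 and 453 for *hot3-2*, 653 and 588 for *dcl2 dcl4*, then 532 and 504 for *hot3-2 dcl2 dcl4*, a ratio of 0.830 (exact permutation p = 0.0286), and the carriers lay below the non-carriers. Of the 28 nt footprints in this class there were 120.0 ± 16.4 per 1000000 in carriers and 161 ± 21.5 in non-carriers (n = 4 each, exact permutation p = 0.0571).

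Footprints overlapping the stop codon went the other way. They numbered 221 and 253 per 1000000 in WT, 370 and 299 for *hot3-2*, 239 and 219 for *dcl2 dcl4*, then 385 and 508 for *hot3-2 dcl2 dcl4*, higher in 4 of 4 carriers with a ratio of 1.68 (exact permutation p = 0.0286, adjusted p = 0.107). A single uncharacterized gene, AT3G63052 (chr3:23298729-23299126, minus strand), held 1921 of these 4787. Without it the class had 188 ± 40.8 per 1000000 in carriers and 164 ± 31.2 in non-carriers (n = 4 each), a ratio of 1.15 (exact permutation p = 0.429). AT3G63052 itself had 43.7 and 53.2 members per 1000000 in WT, 188 and 136 for *hot3-2*, 94.9 and 87.6 for *dcl2 dcl4*, then 231 and 263 for *hot3-2 dcl2 dcl4*. Carriers were 2.92 times as high and did not overlap non-carriers. Of its members 51.3% were 35 nt long and 50.4% were the single footprint shown above, which the libraries placed at 4, 6, 15 or 19 nt past the stop codon. Its coding P sites were 340, 380, 379 and 452 in non-carriers and 633, 466, 516 and 667 in carriers. Relative to them its members had a log2 odds ratio of 0.37 ± 0.127 in carriers (SE, limma fit described next, adjusted p = 0.0823) and did not pass.

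Occupancy was then compared gene by gene, as members against coding P sites of the same gene. The adjusted p came from a quasi-binomial fit with variances moderated by limma, which is what limma fit names here. Each log2 odds ratio and its SE came from a separate unweighted linear fit to the log2 ratios of the libraries. That SE was not moderated, so effect, SE and p need not match. Of 131 genes with enough members, 8 passed in the mean *hot3-2* effect at an adjusted p under 0.05 (6.11% of those tested), of which 6 fell and 2 rose. *hot3-2* against WT gave 3 (2.29%), *hot3-2 dcl2 dcl4* against *dcl2 dcl4* gave 5 (3.82%), *dcl2 dcl4* against WT gave 1 (0.763%) and the interaction of both gave 0 (0.0%, with 15 at an unadjusted p under 0.05 and 6 called by limma voom on the member counts). Genes reached the minimum on members summed over all libraries, and non-carriers were deeper, so genes with more members there were tested more readily and nothing is read from the split of directions. With the offset set as a term, an alternative chosen after seeing the data, 1 of the 8 calls was kept. The calls in *hot3-2* against WT were LHCB5 and NUDX1, which fell, and AT5G54940, which rose. The contrast of *hot3-2 dcl2 dcl4* with *dcl2 dcl4* called CSD2, LHCB5, AT2G35750, AT2G37220 and LUT1, which all fell. In whole inflorescences fewer cells of a type and less RNA per cell cannot be told apart.

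LHCB5 (AT4G10340), a light-harvesting protein of photosystem II, had the lowest log2 odds ratio of the 8 and was called in 8 of 8 fits without 1 library and in the 14 other alternatives run (adjusted p up to 0.0344, limma). Its members numbered 70 and 43 for WT, 1 and 2 for *hot3-2*, 50 and 57 for *dcl2 dcl4*, then 0 and 1 for *hot3-2 dcl2 dcl4*, where its coding P sites were 13501, 12180, 6727, 5971, 10896, 10862, 5393 and 6003 in the same order. Carriers had nearly no members, and their coding P sites were also below those of all non-carriers. The 3′ UTR share was 0.0163% in carriers and 0.462% in non-carriers, a log2 odds ratio of −4.42 ± 0.448 (SE of the linear fit). The adjusted p was 0.0012 (limma-moderated quasi-binomial fit). The members lay at 78 different footprints with the frames at 33.5%, 33.5% and 33.0%, and 38.8% were 28 nt long.

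CSD2 (AT2G28190), the chloroplast copper/zinc superoxide dismutase, fell as well. Its members numbered 22 and 39 for WT, 2 and 4 for *hot3-2*, 67 and 93 for *dcl2 dcl4*, then 1 and 0 for *hot3-2 dcl2 dcl4*, against 2395 coding P sites in all. The 3′ UTR share was 0.818% in carriers and 11.97% in non-carriers, a log2 odds ratio of −3.95 ± 0.569 (SE, limma fit, adjusted p = 0.00503). Of its 228 members, 170 were the 28 nt footprint shown above with the P site 42 nt past the stop codon. The call was lost without either *hot3-2 dcl2 dcl4* library (adjusted p up to 0.0935, limma fit).

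The other falls were smaller or rested on few reads. AT2G37220, a chloroplast RNA-binding protein by annotation, had 13, 9, 7, 3, 15, 14, 1 and 0 members in the order of libraries above, a log2 odds ratio of −2.06 ± 0.445 (SE, limma fit, adjusted p = 0.0379), and 27 of its 62 were the footprint shown above. In the *dcl2 dcl4* background the log2 odds ratio was −3.62 (limma fit, adjusted p = 0.0411) and in the WT background −0.50 (limma fit, adjusted p = 0.532), and their difference of −3.12 did not pass (adjusted p = 0.286, limma). AT5G65360, a histone gene, had 4 and 6 for WT, 8 and 5 in *dcl2 dcl4*, and 0 in all 4 carriers. Against a floor of 3 counts over the carriers its share was at least 4.17-fold lower there. RPL21C (AT1G35680), a plastid ribosomal protein L21, had 5 and 10 for WT, 5 and 10 in *dcl2 dcl4*, and 0 in carriers, and its share was at least 3.82-fold lower by the same floor. Both genes reached the minimum of a mean of 2 members through the non-carriers alone, which favours a fall, as did LHCB5 and CSD2 with few members in carriers. With no minimum on members, LHCB5 was the 1 call. LUT1 had 19.1% in carriers and 37.8% in non-carriers, a log2 odds ratio of −1.33 ± 0.133 (SE, limma fit, adjusted p = 0.0102), with nearly all its members in the coding sequence of AT3G53140.

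A pair of genes rose in carriers. AT5G54940, a homolog of the initiation factor eIF1 (SUI1 family), had 1 and 3 members in WT, 16 and 13 for *hot3-2*, 3 and 2 for *dcl2 dcl4*, then 6 and 6 for *hot3-2 dcl2 dcl4*. The 3′ UTR share was 9.18% in carriers and 1.51% in non-carriers, a log2 odds ratio of 2.68 ± 0.408 (SE, limma fit, adjusted p = 0.0156). Of the members, 76.0% were in frame 1 and 44.0% were of 20 to 22 nt. AT5G54940 reached the minimum of a mean of 2 members only through the carriers, which favours a rise. It was not called with no minimum on members. SAG20 (AT3G10985), named for its association with senescence, had 5 and 7 for WT, 16 and 26 for *hot3-2*, 4 and 5 for *dcl2 dcl4*, then 17 and 9 for *hot3-2 dcl2 dcl4*, at 19.0% against 3.97% (log2 odds ratio 2.39 ± 0.471, SE, limma fit, adjusted p = 0.0285). In each of these 8 genes the 4 carriers and 4 non-carriers did not overlap, which is not particular to called genes. Of 14 tested genes for light-harvesting and photosystem proteins, picked after their values were seen, 7 had carriers wholly below non-carriers. The 7 include LHCB5. AT2G06520 and AT5G01530, also among them, had 0 members in all carriers and reached the minimum through the non-carriers alone, which favours a fall. The number separated in this way among all 131 tested genes was not counted, so nothing is read from the 7. Only 1 of the 14, LHCB5, was called. For SAG20, AT5G54940 and LUT1 the call was lost without any 1 of the 4 libraries with *dcl2 dcl4*, with adjusted p (limma fit) up to 0.168. AT2G37220 lost its call without any 1 library, and AT5G65360 and RPL21C without any 1 but WT replicate 1, with adjusted p up to 0.186.

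**Figure D5:**
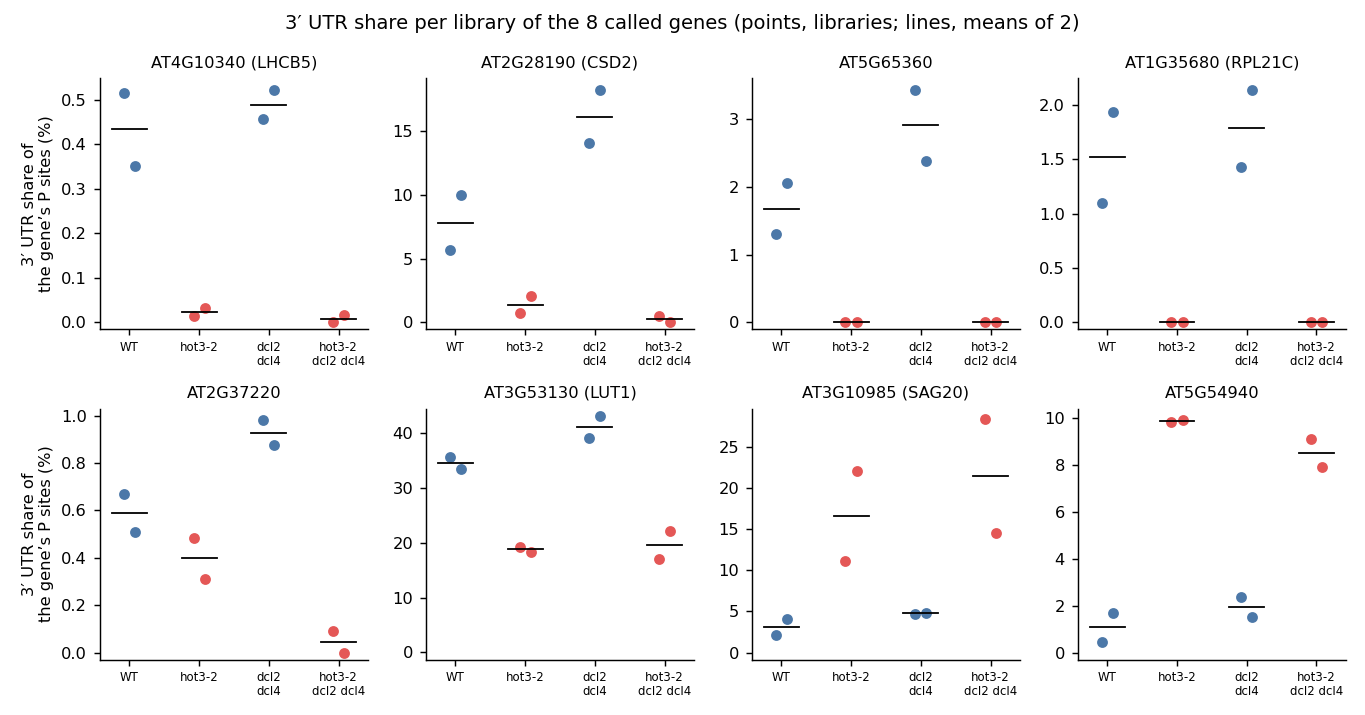
The 3′ UTR share of each gene's P sites (y axis, %, scaled per gene from 0) by genotype (x axis) for the 8 called genes; points are libraries (blue non-carriers, red carriers) and lines the means of 2. In LHCB5 the carriers sit near 0 and the non-carriers between 0.352% and 0.522%.

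For *dcl2 dcl4* against WT the single call was AT2G35750, an uncharacterized gene whose members overlap a snoRNA. It had 0 and 0 for WT, 0 and 8 for *hot3-2*, 27 and 25 for *dcl2 dcl4*, then 0 and 3 for *hot3-2 dcl2 dcl4*. Against a floor of 3 counts over both WT libraries the share in *dcl2 dcl4* was at least 37.7-fold higher (limma fit, adjusted p = 0.0241). Its coding P sites were 251 and 236 in WT and 68 and 104 in *dcl2 dcl4*. AT2G35750 reached the minimum on members only through the *dcl2 dcl4* libraries, where it is high. This favours its rise here and its fall in *hot3-2 dcl2 dcl4* against *dcl2 dcl4*. Both contrasts gave 0 calls with no minimum on members or with the offset set as a term. AT3G59710, a Rossmann-fold protein by annotation, could be followed by its members alone, with 1 coding P site in 8 libraries: it had 10 and 10 for WT, 39 and 21 for *hot3-2*, 21 and 20 for *dcl2 dcl4*, then 52 and 51 for *hot3-2 dcl2 dcl4*, and 24.6% of its members were the footprint shown above.

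The factors that end translation, recycle ribosomes or act in mRNA decay were compared by their coding P sites. Of 12 listed genes 10 could be tested by limma voom, and 2 rose in the mean *hot3-2* effect while none fell, where 2374 of 13323 genes passed in all (17.8%, 1182 higher and 1192 lower). The median log2 fold change of the 10 was 0.117, against 0.00720 over all genes. ABCE2 (AT4G19210), the ATPase that splits ribosomes after termination, had 609 and 689 coding P sites in WT, 770 and 589 for *hot3-2*, 582 and 611 for *dcl2 dcl4*, then 520 and 660 for *hot3-2 dcl2 dcl4*. Scaled for depth it was higher in 4 of 4 carriers, with a log2 fold change of 0.685 ± 0.0764 (SE, limma voom, adjusted p = 1.15e-11). LBA1 (AT5G47010), the helicase UPF1 of nonsense-mediated decay, had a log2 fold change of 0.32 ± 0.0978 (SE, limma voom, adjusted p = 0.0125), also higher in 4 of 4, and lost its call in 28 nt footprints, without *dcl2 dcl4* replicate 2 and without *hot3-2 dcl2 dcl4* replicate 2. ERF1-1 (AT5G47880), a release factor, had −0.32 ± 0.146 (SE, limma voom, adjusted p = 0.132). The release factors ERF1-2 and ERF1-3, the GTPase AT1G18070, ABCE1, AT2G39260 and UPF3 had log2 fold changes between −0.0039 and 0.17 and did not pass, nor did AT5G10630 at 0.23. The 10 tested genes held 11 members in all.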

How the data were processed

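The deposited files list, for each mapped footprint of the 8 libraries, its transcript, the positions of its ends and of the P site, and how far the P site lies from either end of the coding sequence, as the authors assigned them. The submitters' processing notes name cutadapt and STAR. Whether PCR duplicates were removed, and how footprints with several matches were placed, is not given in the sources used here, where STAR settings for several matches are stated for RNA-seq. The files hold no count, score or normalized value, so the counts used were sums of lines made here. The P-site offset was read from each line. It was 12 nt for 28 nt footprints in all libraries but differed for shorter ones, being 7 to 9 nt at several lengths in both *dcl2 dcl4* libraries and *hot3-2 dcl2 dcl4* replicate 1, and 12 to 13 nt in the other 5.

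Each member was assigned to the first class that applied, in the order given in the report, using TAIR10.1 sequence and annotation. Shares were compared with two-sided exact permutation tests over libraries and sign-flip tests over the 8 libraries, with Benjamini-Hochberg adjustment. These tests cannot give a p under 0.0286 for 4 against 4 or under 0.00781 for 8. The permutation tests for *hot3-2* or *dcl2 dcl4* shuffled all 8 libraries and took no account of the other factor. Genes with a mean of at least 2 members and 20 P sites (members and coding) per library were tested. Their p-values came from a quasi-binomial model of members against coding P sites, with variances moderated by limma 3.58.1 in R 4.3.3. Log2 odds ratios and their SE came from a separate unweighted linear fit per gene to log2 ratios with a pseudocount of 0.5, without moderation. Coding P sites of the termination genes were tested with limma voom, over genes passing count minimums of 10 and 15. A call is an adjusted p under 0.05. Python 3.11.15, numpy 2.4.6, pandas 2.3.3, scipy 1.17.1 and matplotlib 3.10.9 were used, and the fits were tested on simulated data. Named genes were the 10 with most members, the 5 with the highest share among genes with a mean of at least 25 members, up to 5 called rises and 5 falls without overlap for *hot3-2*, up to 3 each for *dcl2 dcl4*, and the termination list; genes outside this rule are said to be chosen after their values were seen. The members and lists were chosen with earlier results of these data known. Floors and depth cover counting error only. Same-numbered libraries did not deviate together (Pearson r −0.039 to 0.098 over 6 pairs of libraries, across genes), so the numbers were not used as pairs.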

Additional observations from a re-analysis of the deposited data

Results flagged for a closer look

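In 6 of the 131 tested genes the 3′ UTR share moved in opposite directions with *hot3-2* in the WT and *dcl2 dcl4* backgrounds. The 2 libraries on each side of a comparison did not overlap those on the other. With so few libraries such separation also arises readily by chance, so these 6 may be no more than chance would give. The number expected by chance was not tested. None of the 6 interactions passed adjustment over 131 genes (limma fit). IRX15, which acts in xylan synthesis in cell walls, had shares of 55.8% and 52.1% for WT, 43.2% and 45.2% for *hot3-2*, 34.4% and 23.5% for *dcl2 dcl4*, then 64.9% and 55.0% for *hot3-2 dcl2 dcl4*, an interaction of 2.39 on the log2 scale (adjusted p = 0.157, limma). AT2G04390 had 0.307% and 0.593%, 0.0% and 0.0%, 0.26% and 0.217%, then 0.808% and 1.08% in the same order, an interaction of 5.62 (adjusted p = 0.0701, limma). The other values were −1.92 for AT1G02160, 4.02 for SAG24, 1.88 for AT3G52960 and 3.95 for AT5G21090, with adjusted p of 0.390, 0.485, 0.393 and 0.390 (limma). SAG24 rested on 0 to 5 members per library and AT5G21090 on 0 to 7.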

How the results depend on the processing

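The ratio of 3′ UTR shares between *hot3-2* carriers and non-carriers, 1.17, turned to 0.897 in 28 nt footprints, 0.925 in 26 to 29 nt footprints with the deposited or with fixed offsets, 0.941 without the 10 genes with most members and 0.969 for distinct footprints. The ratio for *dcl2 dcl4*, 1.26, was 1.06 without those 10 genes, 1.02 for distinct footprints, 1.07 without AT2G07732 and 1.11 without any organelle match, each with exact permutation p above 0.05. In the libraries sharing offsets of 12 to 13 nt it was 1.34, from a single *hot3-2 dcl2 dcl4* library against WT and *hot3-2*. That set mixes both factors, and an exact test on it cannot go under 0.05. The difference between 3′ UTR and coding sequence was −32.1 and −40.7 percentage points for frame 0 and −36.8 and −32.9 for the 28 nt share in the 5 libraries with offsets of 12 to 13 nt and the 3 with 7 to 9 nt, where the exact sign-flip test on 5 or 3 libraries cannot go under 0.05. The ratio for the share within 30 nt of the stop codon, 1.20, was 0.850 in footprints wholly past the stop codon. It was 1.33 in 28 nt footprints, 1.12 without the 10 genes, 1.37 without AT2G07732 and 1.45 without organelle matches. The last 4 had an unadjusted exact permutation p of 0.0286. Of these, the 1.12 left out AT3G63052, and the 1.33 held little of it, as 0.617% of its members were 28 nt long. The 1.37 and 1.45 kept it. Leaving out AT2G07732 or organelle matches and the offset term were alternatives chosen after seeing the data. The cause of these changes was not tested.

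The number of called genes, 8 for the mean *hot3-2* effect, was 13 for footprints wholly past the stop codon, 17 without the 10 genes, 19 for distinct footprints, 22 without organelle matches, 25 with limma voom and 1 with no minimum or with the offset set as a term. The 8 were all among the 25 and the 13. *hot3-2* against WT, with 3, gave 0 in 26 to 29 nt footprints, fixed offsets, no minimum, the 12 to 13 nt offset set or the offset term, 10 without the 10 genes, 13 for distinct footprints, 15 without organelle matches and 22 with voom. *hot3-2 dcl2 dcl4* against *dcl2 dcl4*, with 5, gave 3 in 28 nt footprints, 2 in 26 to 29 nt, fixed offsets, wholly past the stop codon or a mean of at least 10 members, 13 for distinct footprints, 11 with voom, and 0 with no minimum, the 7 to 9 nt offset set or the offset term. *dcl2 dcl4* against WT, with 1, gave 2 in 28 nt footprints, 7 without the 10 genes or organelle matches, 13 with voom, and 0 in 26 to 29 nt, fixed offsets, wholly past the stop codon, no minimum, a mean of at least 10 or the offset term. The interaction, with 0, gave 3 without the 10 genes, 2 for distinct footprints, 4 without organelle matches and 6 with voom. The termination list gave 1 call in 28 nt footprints instead of 2.

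With the replicate number as a block, the *dcl2 dcl4* ratio stayed 1.26 with an exact permutation p of 0.125, the smallest that 4 pairs allow, and the gene calls were 2, 0, 1 and 0 for the contrasts in the order above. The numbers do not pair the libraries, so a call lost there is no measure of its strength. Leaving out 1 library at a time gave 1.10 to 1.23 for the *hot3-2* ratio, 1.20 to 1.31 for *dcl2 dcl4*, −36.8 to −32.7 for frame 0, −35.9 to −34.6 for the 28 nt share and 1.14 to 1.30 within 30 nt. The gene calls ran from 1 to 11 for the mean *hot3-2* effect, 0 to 4, 0 to 3 and 0 to 1 for the next contrasts, 0 to 1 for the interaction and 1 to 3 for the termination list. An arm left with 1 library was assumed to vary like the others.

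For the mean *hot3-2* effect some named genes changed sign on the log2 scale. AT2G07732 went from 0.42 to −0.058 in 28 nt footprints and −0.0069 in 26 to 29 nt with either offsets, AT2G07671 from 0.59 to −1.19 in 26 to 29 nt with either offsets, AT3G63052 from 0.37 to −0.16 for distinct footprints, and AT2G07718 from −0.73 to 0.23 with voom. AT3G52730 went from 0.077 to −0.38 in 28 nt, −0.30 in 26 to 29 nt with either offsets, −0.31 with voom and −0.051 to 0.20 without 1 library at a time. CK1 went from −0.41 to 0.11 in 26 to 29 nt with either offsets and 0.36 for distinct footprints. None of these had passed before the change of setting. Most genes had few members per library, which limits what could be called.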

Other observations

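The fall of LHCB5 members in carriers led to a look at other genes for light-harvesting and photosystem proteins. They were picked by product name after the values were seen, with no minimum on members, and no test is given. Of 58 such genes besides LHCB5 with any P site, 31 had members. Summed over the 58, the 3′ UTR share of P sites was 0.13% and 0.174% for WT, 0.0439% and 0.0381% for *hot3-2*, 0.149% and 0.112% for *dcl2 dcl4*, then 0.0381% and 0.0712% for *hot3-2 dcl2 dcl4*. All 4 carriers lay below all 4 non-carriers. Members numbered 16 to 34 in carriers and 97 to 184 in non-carriers, and the coding P sites of these genes were also fewer in carriers, at 41955 to 56913 against 81190 to 112630. Such separation was not particular to these genes. All footprints inside the 3′ UTR, scaled to nuclear P sites, also had all 4 carriers below all 4 non-carriers, at a ratio of 0.830. Over all genes without organelle matches, the mean 3′ UTR share of nuclear P sites was 0.105% in carriers and 0.105% in non-carriers. Whether the 58 fell more than other genes was not tested.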
